A study of Mus musculus with 3 samples.

Results

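Distal regions open in erythroid-like cluster 5 of mouse embryo nuclei were defined as 1 kb bins of the mm10 genome on the autosomes. These bins lay more than 2 kb from any annotated transcription start site (TSS), held at least 20 fragments in cluster 5, and had a fragment level at least 4 times that of clusters 0, 1, 6, 7, 8, 9 and 10 pooled. The regions were chosen by the measured fragments themselves, so the difference between cluster 5 and the pooled clusters is a description and carries no test. Of 2132295 distal autosomal bins, 8503 (0.399%) met the rule. Of the 34339 distal bins with at least 20 fragments in cluster 5, the 8503 were 24.8%.

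The data were single-nucleus ATAC-seq, in which the transposase Tn5 inserts adapters into accessible DNA and each fragment carries the barcode of its nucleus. Nuclei came from frozen sections of wild-type (WT) C57BL/6JRj embryos at the embryonic days E12.5 (153 nuclei), E13.5 (970 nuclei) and E15.5 (756 nuclei), with 1 library per stage. All 3 stages share the genotype and strain, and the sources used here do not give the number of embryos behind a library. Cluster 5 held 10, 166 and 10 nuclei in stage order, and the second erythroid-like cluster, 11, held 1, 35 and 7. Without a second library per stage there was no replicate error, and the intervals given here cover counting error only. Levels are fragments per 1000000 autosomal fragments of the same nuclei (CPM), summed over libraries unless a stage is named.

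Before the results, the cluster was checked against marker genes. All 10 erythroid markers, among them the anion exchanger gene Slc4a1 and the X-linked factor gene Gata1, were at least 1.5-fold higher around their TSSs in cluster 5 than in the pooled clusters, with a summed level of 259 insertions on the CPM scale against 17.4. Of the megakaryocyte and mast cell markers 4 of 9 were that much higher, with a summed level of 58.5 against 54.0, and of the white blood cell markers 2 of 8, with 29.6 against 28.8. The hepatocyte, endothelial, neuron, mesenchyme and muscle lists had none. No marker of any list was at 0 in cluster 5. In cluster 11 the erythroid sum was 456 CPM, the megakaryocyte and mast cell sum was 131 and the white blood cell sum was 44.1, all above the pooled clusters, and the neuron markers were at 0. The sums above the pooled clusters rested largely on few genes. Slc4a1 gave 188 of the erythroid 456 and Tal1 gave 127. Counted in the 1 kb bins that hold a TSS, all 10 erythroid markers were at least 1.5-fold above the pooled clusters in cluster 11. Itga2b gave 96.3 of the 131 and Vwf 21.2, while Pf4, Fli1, Meis1 and Cpa3 were at 0. Coro1a gave 35.9 of the 44.1, while Ptprc, Spi1, Cd48 and Tyrobp were at 0. A single barcode occurred in both the E13.5 and the E15.5 library.

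Red blood cell precursors build hemoglobin under the control of a small set of nuclear factors. GATA1 binds DNA at GATA sequences, and it works together with TAL1, LMO2 and LDB1, a complex that can recognise a CTG of the E-box type spaced from a GATA sequence. KLF1 binds CACCC sequences, and the heterodimer of NFE2 with small MAF proteins, as well as the repressor BACH1 with the same partners, binds sequences of the AP-1 type. Many sites bound by these factors lie in introns or between genes, far from the promoters they act on, and the fetal liver is the main site of red cell production at these stages.

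The following 8 windows are shown because each is the 300 bp with the most Tn5 insertions of cluster 5 within a region near a gene of red cell function. They are printed from the reference on the plus strand of mm10, 5′ to 3′, and capitals mark motifs on either strand. The GATA motifs AGATAA and TGATAA read TTATCT and TTATCA when they lie on the minus strand, the KLF-type motif CCACCC then reads GGGTGG, and the AP-1-type motif TGAGTCA reads TGACTCA. Capitals also mark the composite, in which CTG and GATA have 9 bases between them. The windows are chr4:115095701-115096000 downstream of Tal1 and of the next gene, Pdzk1ip1, chr11:32245671-32245970 in an intron of Nprl3 beside the alpha-globin genes, chr8:122321671-122321970 in Zfpm1, chr8:23054041-23054340 in Ank1, chr12:76670641-76670940 in Sptb, chr4:62516661-62516960 in Alad, chr4:46407001-46407300 in Hemgn and chr7:103861001-103861300 upstream of Hbb-y. None of them overlapped an annotated exon.
Tal1 window: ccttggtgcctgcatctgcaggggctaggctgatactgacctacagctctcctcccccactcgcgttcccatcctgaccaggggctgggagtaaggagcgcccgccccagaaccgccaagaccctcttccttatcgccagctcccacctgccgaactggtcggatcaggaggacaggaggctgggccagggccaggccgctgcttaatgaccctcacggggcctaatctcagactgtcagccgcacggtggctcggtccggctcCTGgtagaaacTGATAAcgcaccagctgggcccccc
Hba-x window: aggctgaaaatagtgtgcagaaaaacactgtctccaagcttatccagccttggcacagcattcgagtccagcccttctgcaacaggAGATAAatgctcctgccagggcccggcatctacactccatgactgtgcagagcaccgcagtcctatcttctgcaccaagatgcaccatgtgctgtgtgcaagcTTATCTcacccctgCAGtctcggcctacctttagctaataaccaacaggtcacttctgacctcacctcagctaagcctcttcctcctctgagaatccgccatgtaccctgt
Zfpm1 window: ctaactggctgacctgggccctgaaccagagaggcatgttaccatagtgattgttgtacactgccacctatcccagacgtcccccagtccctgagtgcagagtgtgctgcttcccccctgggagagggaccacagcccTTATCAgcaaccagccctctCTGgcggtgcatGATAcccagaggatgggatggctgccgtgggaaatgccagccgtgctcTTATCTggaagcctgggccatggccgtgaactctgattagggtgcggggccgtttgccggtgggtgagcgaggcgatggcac
Ank1 window: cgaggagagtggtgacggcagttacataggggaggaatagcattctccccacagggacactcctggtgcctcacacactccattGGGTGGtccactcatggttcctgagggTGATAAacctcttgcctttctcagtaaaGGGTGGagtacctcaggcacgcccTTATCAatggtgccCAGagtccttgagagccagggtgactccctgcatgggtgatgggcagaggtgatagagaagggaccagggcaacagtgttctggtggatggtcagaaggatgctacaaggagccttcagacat
Sptb window: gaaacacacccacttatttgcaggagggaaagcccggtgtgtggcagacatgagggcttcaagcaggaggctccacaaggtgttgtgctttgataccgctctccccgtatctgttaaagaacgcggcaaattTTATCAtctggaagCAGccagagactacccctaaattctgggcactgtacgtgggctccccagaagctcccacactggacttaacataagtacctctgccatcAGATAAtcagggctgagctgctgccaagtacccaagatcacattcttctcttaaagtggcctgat
Alad window: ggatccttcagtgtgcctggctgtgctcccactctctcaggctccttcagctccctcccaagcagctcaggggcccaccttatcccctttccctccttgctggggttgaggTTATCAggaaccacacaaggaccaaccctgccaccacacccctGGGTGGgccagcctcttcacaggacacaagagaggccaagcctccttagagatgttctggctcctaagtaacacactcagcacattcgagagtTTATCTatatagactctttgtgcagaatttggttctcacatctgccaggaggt
Hemgn window: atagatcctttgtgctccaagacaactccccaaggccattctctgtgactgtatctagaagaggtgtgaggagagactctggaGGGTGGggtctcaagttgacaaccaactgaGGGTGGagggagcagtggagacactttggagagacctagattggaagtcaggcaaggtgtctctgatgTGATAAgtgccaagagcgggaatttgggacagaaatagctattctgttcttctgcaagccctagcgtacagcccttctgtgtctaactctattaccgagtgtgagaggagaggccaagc
Hbb-y window: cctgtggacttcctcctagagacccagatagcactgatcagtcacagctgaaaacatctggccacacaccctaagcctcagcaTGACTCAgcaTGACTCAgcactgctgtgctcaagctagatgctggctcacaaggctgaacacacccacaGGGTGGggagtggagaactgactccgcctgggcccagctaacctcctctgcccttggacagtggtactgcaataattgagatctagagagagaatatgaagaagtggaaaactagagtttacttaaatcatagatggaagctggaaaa

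In the Tal1 window, the composite began at base 265 of the window and its GATA was part of the TGATAA at base 276. The composites of the Hba-x, Ank1 and Sptb windows likewise ended in the GATA of an AGATAA or a TGATAA, whereas that of the Zfpm1 window did not. In the Hbb-y window no AGATAA or TGATAA occurred, and it held a tandem pair of TGAGTCA on the minus strand, at bases 84 and 94. Thus 7 of the 8 windows held AGATAA or TGATAA, 5 held the composite and 1 held TGAGTCA.

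Most of the 8503 regions were modest in level. Cluster 5 had a median of 51 fragments per region, from 20 to 4174, and the median level was 3.66 CPM against 0.443 in the pooled clusters. The fold of cluster 5 over the pooled clusters, with 0.1 CPM added to both, had a median of 6.50 (quartiles 4.91 and 10.1) and reached 63.3. It was at least 8 in 3084 regions, at least 16 in 914 and at least 32 in 114. A single region had no fragment in the pooled clusters. The fragments of a region came from a median of 35 of the 186 nuclei, and never from fewer than 6. Just inside the limit were regions near Slc41a3, March5 and Echdc3, the last with 42 fragments against 49 in the pooled clusters and a fold of 4.002. Just outside were a region near Ifnlr1 (25 against 27 fragments) and one near Ank1 (52 against 62), both with a fold of 3.999.

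Touching regions were joined, which gave 5503 stretches. Of these, 3695 were a single bin, 1137 were 2 bins long and 15 were 8 bins or longer. The longest had 16 bins, chr7:103864001-103880000, running from the upstream side of Hbb-y into a group of olfactory receptor genes that neighbours the beta-globin cluster. It held 1091 fragments of cluster 5, 166 of the pooled clusters and 26 of cluster 11. The next in length were 14 bins within Ikzf1 (chr11:11725001-11739000), 11 bins beside Slc2a1, which encodes a glucose transporter, 11 bins within Aff1 and 10 bins near Cd47.

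**Figure D1:**
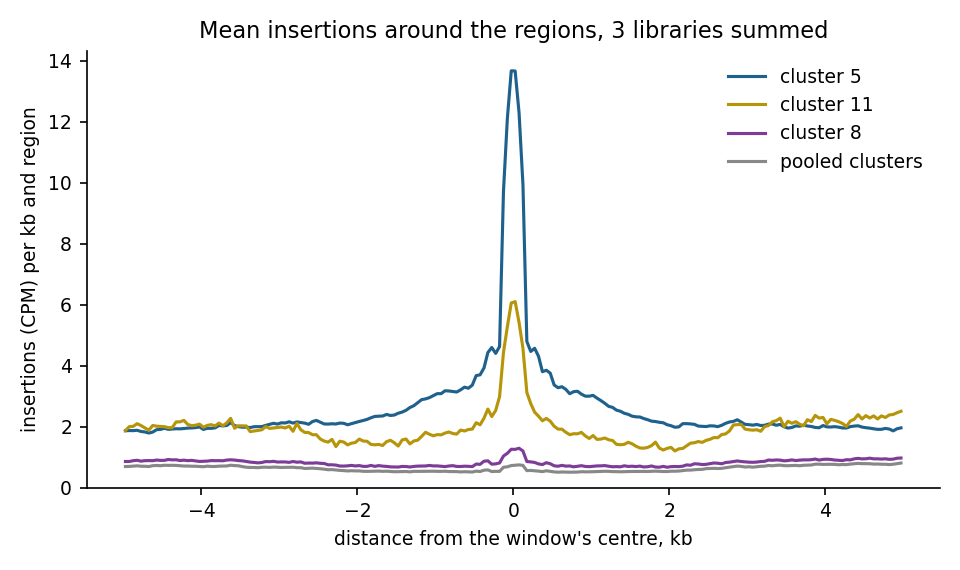
Mean Tn5 insertions (CPM) per kb and region (y axis) against the distance from the centre of the 300 bp window (x axis, kb), with the 3 libraries summed and a line each for cluster 5, cluster 11, cluster 8 and the pooled clusters. The windows were placed on the insertions of cluster 5, which reached 13.7 at the centre; cluster 11, which did not place them, reached 6.1 there.

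The regions lay closer to genes than distal bins in general. The median distance to the nearest TSS of a protein-coding gene was 14.2 kb, against 62.0 kb for all distal bins and 10.1 kb for the bins with at least 20 fragments in cluster 5 that missed the fold, called open non-members below. Within 50 kb lay 83.5% of the regions and 45.8% of all distal bins. By the annotation of the bin centre, 58.2% of the regions were intronic, 5.07% exonic and 36.7% intergenic. The shares were 40.7%, 2.77% and 56.5% for all distal bins, and 54.8%, 10.3% and 34.8% for open non-members. The intronic share was thus nearer to that of open non-members than to that of all distal bins. Chromosome 11 held 6.49 regions per 1000 distal bins and chromosome 14 held 2.43, the highest and the lowest of the 19 autosomes. Of the 662 regions of chromosome 11, 10 lay at the alpha-globin genes and Nprl3.

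Genes with the most regions nearest to them were Runx1 and Fig4 with 27 each, Ank1 with 25, Cd47, Lpcat1 and Zfpm1 with 23 each, Inpp5d and Map3k1 with 21 each, Podxl with 20 and Cd24a and Ikzf1 with 19 each. The number of distal bins nearest to these genes differed, and the 27 regions were 4.66% of 580 such bins for Runx1 and 25% of 108 for Fig4. The 14 regions of Slc4a1, which encodes the anion exchanger of the red cell membrane, were 58.3% of 24. Runx1, Zfpm1 and Ikzf1 encode nuclear factors of blood development, Ank1 an anchor of the red cell membrane skeleton, and Cd47 and Cd24a cell surface proteins of blood cells. In all, 3056 protein-coding genes were nearest to at least 1 region and 490 to at least 5.

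For 5 lists of red cell genes, the number of genes with a region within 50 kb of a TSS was counted, beside 26.8% of all 20780 autosomal protein-coding genes. The lists were compiled with earlier results of these data known and are a description. All 11 genes of the globin list, which holds the globin genes and their neighbour Nprl3, had such a region. These genes sit together at the alpha- and beta-globin clusters and share regions, so they do not count separately. Such a region was also found for 22 of 24 genes of erythroid nuclear factors (all but Klf1 and Nfia), 8 of 12 genes of heme synthesis and transport, and 15 of 19 membrane genes. Of the iron, receptor and other late genes, 10 of 18 had one. By the same count, 3 of 9 megakaryocyte and mast cell markers, 1 of 8 white blood cell, 1 of 8 hepatocyte, 2 of 8 endothelial and 1 of 8 neuron markers had a region, and none of the 6 mesenchyme and 6 muscle markers did. Gata1 and Alas2 lie on the X chromosome and were outside the rule. A gene of the 5 lists was nearest to 395 regions (4.65%), against 0.331% of all distal bins.

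The median fold was 12.1 over the 41 regions within 50 kb of a gene of the globin list, of which 15 reached 16. It was 6.51 for the 119 regions of the factor list, 5.99 for the 52 of the heme list, 6.04 for the 131 of the membrane list and 6.76 for the 59 of the iron and receptor list, against 6.50 over all 8503. Except for the globin list, regions beside red cell genes had thus about the same median fold as regions elsewhere.

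Globin genes encode the protein chains of hemoglobin. At the beta-globin cluster, 9 regions had Hbb-y, the embryonic epsilon-type chain, as the nearest gene. They spanned chr7:103858001-103868000, from 5.28 to 14.3 kb upstream of it, with folds from 6.60 to 54.3. The locus control region of the beta-globin genes, a known group of enhancers, lies on this side of the cluster. The region of the Hbb-y window (chr7:103861001-103862000) had 12.9, 19.3 and 26.2 CPM in cluster 5 in the order of the stages, from 8, 247 and 13 fragments. The pooled clusters had 0, 0.964 and 0.220. A neighbour 2 bins away, chr7:103859001-103860000, had 12.9, 15.8 and 20.1 in cluster 5 and 0.487, 0.220 and 0.126 in the pooled clusters. In each library both regions were far higher in cluster 5, which the rule favours, and the number of fragments at E12.5 and E15.5 was small. A further 7 regions lay between 2.50 and 7.49 kb from the adult genes Hbb-bt and Hbb-bs, with folds from 8.02 to 35.2.

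At the alpha-globin cluster, the strongest region was chr11:32245001-32246000, in an intron of Nprl3 and 30.9 kb upstream of the embryonic gene Hba-x. Cluster 5 had 19.3, 29.8 and 38.2 CPM there (12, 382 and 19 fragments), and the pooled clusters had 0.487, 0.689 and 0.439. Enhancers of the alpha-globin genes are known to lie in introns of Nprl3. A region 3.0 kb upstream of the adult gene Hba-a2 had 6.45, 10.7 and 18.1 against 0, 0.303 and 0.314. Hba-a2 and Hba-a1 are near-identical copies, so fragments close to them are of uncertain origin.

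Among nuclear factors, the region chr4:115095001-115096000 lay 36.0 kb downstream of the nearest Tal1 TSS. It had 45.1, 32.6 and 54.3 CPM in cluster 5 (28, 418 and 27 fragments) and 1.71, 1.93 and 1.26 in the pooled clusters. TAL1 is the helix-loop-helix partner of GATA1 in red cells. The region of the Zfpm1 window, in the gene of the GATA1 cofactor FOG1, had 24.2, 26.3 and 34.2 against 1.46, 1.46 and 1.73. A region 64.5 kb upstream of Lmo2 had 16.1, 24.0 and 38.2 against 0.731, 0.551 and 0.534, and LMO2 bridges TAL1 to GATA1. The 3 factor genes had their levels in the pooled clusters apart by only small amounts between the stages, while the levels in cluster 5 were highest at E15.5 in each.

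Near Gfi1b, which encodes a repressor of blood progenitor genes, a region 12.9 kb downstream of the TSS had 17.7, 25.5 and 40.2 CPM in cluster 5 and 0.244, 0.579 and 0.753 in the pooled clusters. An intronic region of Ikzf1 had 8.06, 19.4 and 30.2 against 0.731, 0.413 and 0.126, one of the highest folds at 47.97. IKAROS, the product of Ikzf1, is better known from lymphoid cells and also acts in red cell precursors. An intergenic region near Runx1, 303.4 kb from its nearest TSS, had 19.3, 17.9 and 34.2 against 0.731, 0.689 and 0.596. Regions near Mafk (with its centre in an exon of Tmem184a), Cbfa2t3 and Lyl1 had 34.7, 23.2 and 22.1 CPM over all libraries, with folds of 19.8, 11.8 and 9.42.

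For the red cell membrane, the region with the highest level lay in an intron of Gypc (chr18:32542001-32543000), which encodes glycophorin C. It had 29.0, 35.3 and 52.3 CPM in cluster 5 (18, 452 and 26 fragments) and 0, 0.579 and 0.408 in the pooled clusters, and its fold of 62.6 was the second highest of all. The Ank1 region had 22.6, 24.2 and 28.2 in cluster 5 against 0.487, 0.661 and 0.408. In Sptb, the gene of the beta-spectrin that ankyrin holds, the values were 22.6, 23.7 and 28.2 against 0.975, 0.716 and 0.439. The levels of these 2 regions were close to each other in every stage. Rhd and Cd47 regions had 21.1 and 20.3 CPM over all libraries, with folds of 19.6 and 17.3.

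In heme synthesis, a region in an intron of Alad, whose enzyme joins a pair of aminolevulinate molecules, had 14.5, 20.1 and 30.2 CPM in cluster 5 and 0.487, 1.10 and 1.29 in the pooled clusters. Regions of Abcb10, a mitochondrial transporter, Cpox and Fech, the enzyme that inserts iron, had 17.4, 12.8 and 12.1 CPM over all libraries, with folds of 15.9, 21.2 and 17.6. Among the other genes, a region in an intron of Hemgn, a nuclear protein of blood cells, had 8.06, 19.7 and 34.2 against 0, 0.523 and 0.220. The regions of Hebp1, Car2 and Xpo7 had 16.4, 15.7 and 13.9 CPM over all libraries, with folds of 19.1, 25.8 and 38.6. Over all lists, 58 regions were the one with the most fragments of a red cell gene, and 53 of them were above the pooled clusters in all 3 libraries. The other 5, for Nfe2, Uros, Slc25a38, Abcb6 and Kel, had no cluster 5 fragment at E12.5, at E15.5 or, for Uros, at both, and held 28 to 72 cluster 5 fragments in all. The rule chose all 58 on the fragments of these same libraries. The 53 were those with a cluster 5 fragment in every library, so this count does not test the stages one by one.

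The highest folds were not confined to genes of red cell function. The first 10 regions by fold were nearest to Sdcbp (63.3), Gypc (62.6), Reln (55.1), Hbb-y (54.3 and 54.1), Ccdc71l (53.1), Gm12394 (52.0), Cdyl (50.2), Cd24a (50.1) and Calm5 (49.2). The region 28.1 kb upstream of Sdcbp had 22.6, 19.9 and 26.2 CPM in cluster 5 and 0.244, 0.220 and 0.220 in the pooled clusters. The nearest gene need not be the gene a region acts on: the region nearest to Reln, which encodes an extracellular guidance protein of neurons, lay 3.8 kb upstream of it.

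In a few regions, many fragments came from the same nuclei. The largest by fragments, chr13:9011001-9012000 near Gtpbp4, held 4174 fragments from 181 nuclei, 23.1 per nucleus with a fragment. It was also high in the pooled clusters, at 69.8 CPM, and 50.3% of its bases were soft-masked repeats. Over all regions the median was 1.52 fragments per nucleus with a fragment, and 956 regions had more than 2. The region of Zdhhc19 (chr16:32509001-32510000) had 4.99 and that of Gm21060 (chr19:61267001-61268000) 3.95, and whether they have further copies in the mouse genome was not tested.

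**Figure D2:**
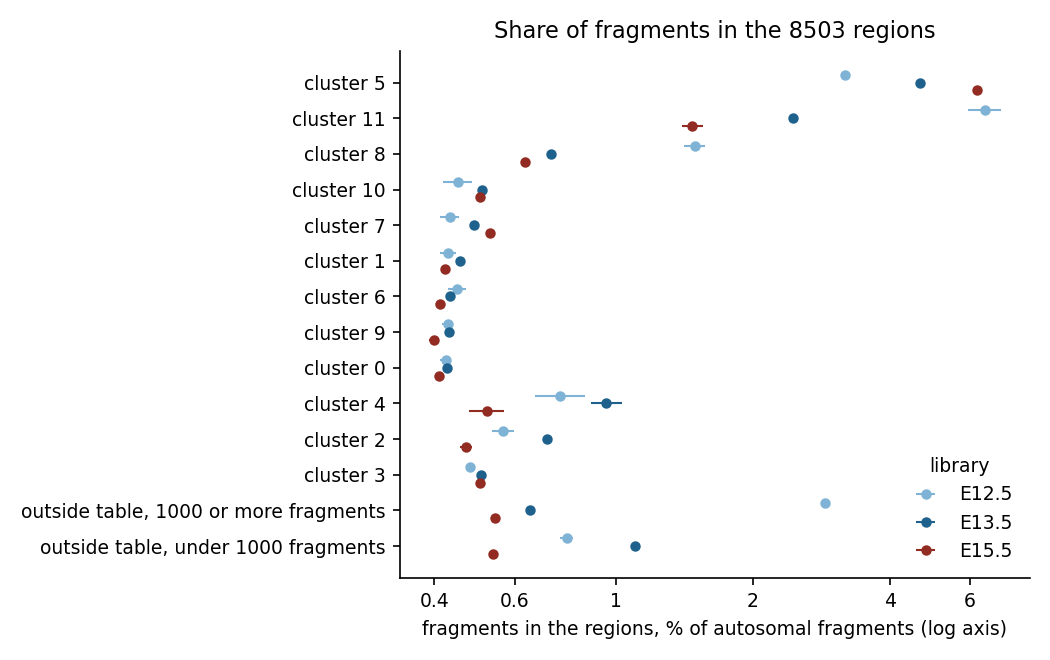
Share of autosomal fragments that fell in the 8503 regions (x axis, percent, log axis) for each of the 12 clusters and for barcodes outside the cell table (y axis), with a coloured point per library and bars for the exact 95% interval of counting error. Cluster 5 lay between 3.20 and 6.23%, cluster 11 between 1.48 and 6.48%, and the pooled clusters other than 8 between 0.399 and 0.53%.

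As a share of all autosomal fragments, the regions of cluster 5 took 3.20% (95% interval 3.16 to 3.24%), 4.67% (4.65 to 4.68%) and 6.23% (6.16 to 6.30%) in stage order. In the pooled clusters they took 0.454%, 0.490% and 0.456%. The ratio of cluster 5 to the pooled clusters was 7.05, 9.53 and 13.7. E13.5 supplied 166 of the 186 nuclei and hence chose most of the regions. The regions were chosen again without the library in which they were then measured. The 8550 regions chosen without E12.5 took 3.07% of the cluster 5 fragments of E12.5 (3.03 to 3.12%) and 0.479% in the pooled clusters, a ratio of 6.41 (6.28 to 6.54). In E12.5, 6041 of them (70.7%) had a cluster 5 fragment, and 5971 (69.8%) were higher in cluster 5 than in the pooled clusters. The 8521 regions chosen without E15.5 had a ratio of 12.4 in E15.5 (12.3 to 12.6). Of these, 6619 (77.7%) had a cluster 5 fragment in that library, and 6613 (77.6%) were higher in cluster 5 than in the pooled clusters. A region without a cluster 5 fragment could not be higher, so these shares mostly count the regions with a fragment. Without E13.5 the rule found 379 regions, with a ratio of 13.4 in E13.5 (13.2 to 13.6), and all of them were higher in cluster 5. The cluster numbers were set on all libraries together, so a library left out of the choice of regions is not a fully independent one.

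The gene lists followed the same order of stages as the sum. Per region, globin regions had, in stage order, 4.09 (3.34 to 4.95), 6.05 (5.84 to 6.26) and 7.07 CPM (5.96 to 8.32) in cluster 5. The intervals of E13.5 and E15.5 overlapped. Factor regions had 5.62, 8.04 and 10.2, heme regions 3.41, 4.86 and 6.23, membrane regions 4.17, 6.13 and 8.11, and iron and receptor regions 4.04, 5.41 and 6.75. Over all 8503 regions the level was 3.76, 5.49 and 7.32.

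The share also differed with the number of fragments that a nucleus held. The per-nucleus share had a median of 3.49% at E12.5, 6.52% at E13.5 (quartiles 2.61 and 8.75%) and 8.26% at E15.5, and these nuclei held a median of 43207, 61674 and 33143 fragments. Cluster 5 nuclei were divided at the quartiles of E13.5, which were 30948, 61674 and 107938 fragments. Within E13.5, the summed share fell from 7.93% in the 42 nuclei of the lowest range to 7.09%, 6.06% and 2.85% in the 42 nuclei of the highest. In the lowest range, the share was 8.20% at E12.5 (4 nuclei), 7.93% at E13.5 and 8.28% at E15.5 (5 nuclei). The order of the stages in the sums was thus not seen among these nuclei. In the second range the share was 2.65% at E12.5 (2 nuclei), 7.09% at E13.5 and 9.12% at E15.5 (4 nuclei), so the order of the sums held there. In the third range the 3 nuclei of E12.5 had 3.05%, against 6.06% at E13.5, and E15.5 had no nucleus. In the highest range it was 2.06% in the 1 nucleus of E12.5, 2.85% at E13.5 and 2.48% in the 1 nucleus of E15.5. The 10 nuclei of E12.5 ran from 2.06 to 9.81%, and those of E15.5 from 2.48 to 12.2%. With so few nuclei at E12.5 and E15.5, stage, stage of red cell maturation and number of fragments cannot be told apart.

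**Figure D3:**
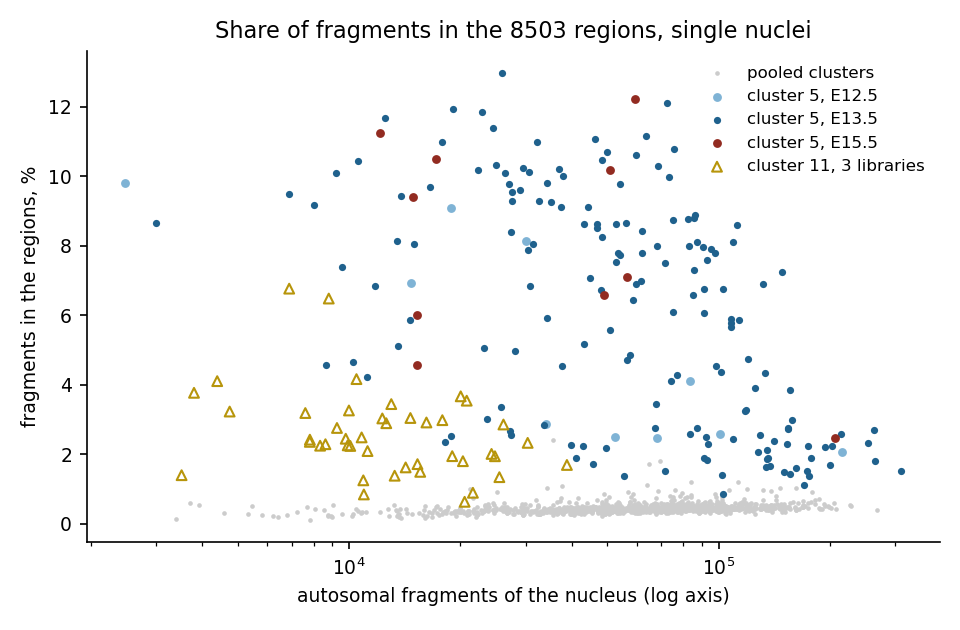
Share of fragments in the regions (y axis, percent) against the autosomal fragments of a nucleus (x axis, log axis), with a point per nucleus of cluster 5 (coloured by library), cluster 11 (triangles) and the pooled clusters (grey). Within cluster 5 the share was lower in nuclei with more fragments, and 1 of 1013 nuclei of the pooled clusters reached 2%.

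Other values moved with the number of fragments. From the lowest to the highest range of E13.5, the cluster 5 share in bins open in mesenchyme-like cluster 1, found by the same kind of rule, went from 0.141 to 0.223%, and the share in bins open in neuron-like clusters 0 and 6 went from 0.0901 to 0.158%. In bins open in muscle-like cluster 10 it went from 0.245 to 0.284%. Cluster 1 itself had 1.45% in its own bins, and cluster 0 had 0.199% in those of cluster 1. Doublets were not called, and the part of mixed nuclei in the lower share was not tested.

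Individual regions did not all follow the sum. Among the 4720 regions with at least 20 fragments in the lowest and highest ranges together, the median ratio of highest to lowest was 0.389. It was at most 0.5 in 2906 regions and above 1 in 727, of which 306 reached 2. Chosen after their values were seen, the region 3.0 kb upstream of Hba-a2 had 41.2 CPM in the lowest range and 2.85 in the highest, a ratio of 0.0692 (0.0373 to 0.125). A region in Epb41, the gene of membrane protein 4.1, had 35.2 and 3.61, a ratio of 0.103 (0.0571 to 0.182). The region 113.3 kb downstream of Kit, the receptor of early blood progenitors, had 4.85 and 6.61, a ratio of 1.36 (0.496 to 5.22). The region listed for Gata2, an early blood factor, lay in an intron of Dnajb8, its nearest gene, and within 50 kb of Gata2. It had 2.42 and 4.21, a ratio of 1.73 (0.437 to 15.03). The Kit and Gata2 intervals include 1 and rest on 4 and 2 fragments in the lowest range, and they lie above the intervals of Hba-a2 and Epb41. The Zfpm1 region had 0.500 (0.328 to 0.786), above the intervals of Hba-a2 and Epb41 and overlapping those of Kit and Gata2.

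Cluster 8, one of the pooled clusters, had the highest share among them, with 1.49% at E12.5 (2 nuclei), 0.723% at E13.5 and 0.633% at E15.5. Of the nuclei with at least 1000 fragments, 164 of 186 in cluster 5 (88.2%) and 29 of 43 in cluster 11 (67.4%) had at least 2% of their fragments in the regions. Among the pooled clusters 1 of 1013 did (0.0987%), a cluster 8 nucleus of E12.5 with 2.41%. The regions thus separated cluster 5 nuclei from those of the pooled clusters with little overlap, which the rule favours.

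Cluster 11 took 6.48% of its fragments from the regions in the single E12.5 nucleus (570 of 8797 fragments). The share was 2.46% in the nuclei of E13.5 (2.42 to 2.50%) and 1.48% in those of E15.5 (1.40 to 1.55%). Cluster 11 was not used by the rule, but the pooled clusters were, and a low pooled level favoured the choice of a region and raises this ratio. Its ratio to the pooled clusters was 14.3, 5.02 and 3.24 in stage order and 4.996 over all libraries (4.91 to 5.08). Relative to cluster 5 it was 2.03, 0.527 and 0.237. The rule asked for at least 20 fragments and a high level in cluster 5, but for none in cluster 11. This lowers cluster 11 relative to cluster 5 in the regions, so these ratios do not rank the 2 clusters in openness at distal bins. The order of the stages was the opposite of that of cluster 5. Cluster 11 nuclei were shallow, with medians of 12285 fragments at E13.5 and 14209 at E15.5, and their share was below the 7.93% of the cluster 5 nuclei of the lowest range at E13.5. Region by region, cluster 11 was at least 4 times above the pooled clusters in 2421 of the 8503 (28.5%), against 12.9% of all 34339 distal bins with at least 20 fragments in cluster 5 and 7.76% of the open non-members. The rule favoured a low pooled level, so regions pass this fold more readily than open non-members at the same cluster 11 level. In 57.9% of the regions and 62.7% of the open non-members cluster 11 had no fragment, at a depth where 1 fragment is a high level.

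**Figure D4:**
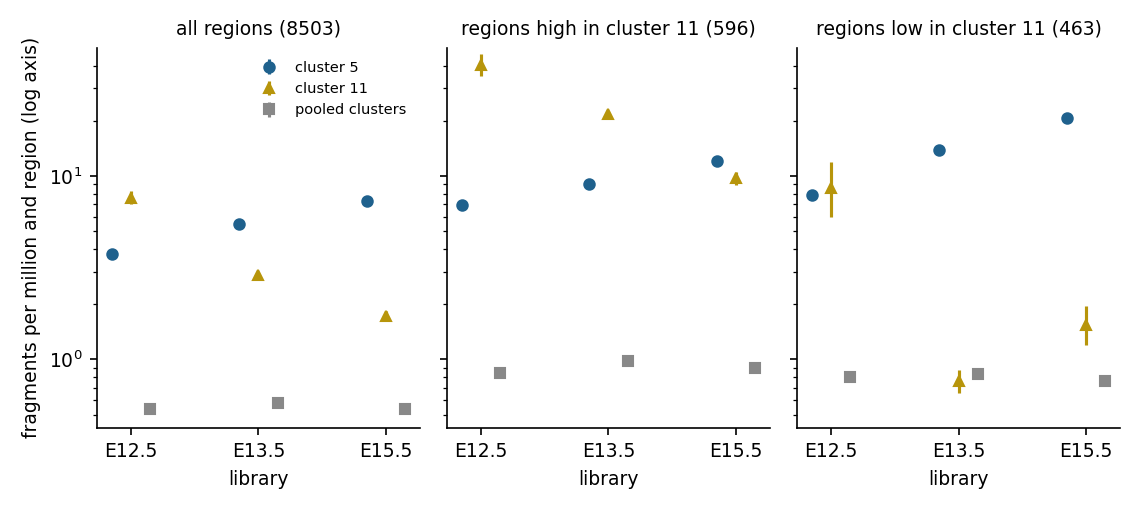
Level in cluster 5, cluster 11 and the pooled clusters (y axis, CPM per region, log axis) by library (x axis), for all regions and for those that were high or low in cluster 11 at E13.5, with bars for the exact 95% interval of counting error. E13.5 set the groups, and in E15.5 cluster 11 had 9.70 in the 596 high regions and 1.53 in the 463 low ones.

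Regions beside red cell genes had a higher level in cluster 11 than the regions at large. They also lay nearer to a TSS, at a median of 7.75 kb against 14.2 kb, and the part of distance was not tested. Over the 402 regions within 50 kb of a gene of the 5 lists, cluster 11 had 6.41 CPM per region at E13.5 (6.07 to 6.77). Cluster 5 had 6.42 (6.35 to 6.49), so these, from nuclei of unlike depth, did not differ beyond counting error. Over all 8503 regions the levels were 2.89 (2.84 to 2.94) and 5.49 (5.47 to 5.50). At E15.5 the 402 had 4.18 in cluster 11 (3.56 to 4.88) and 8.19 in cluster 5 (7.80 to 8.60). The factor regions were at 9.49 in cluster 11 at E13.5 (8.73 to 10.3) and 8.04 in cluster 5 (7.90 to 8.19), and the globin regions at 7.58 (6.45 to 8.86) and 6.05 (5.84 to 6.26). The heme regions were at 3.22 (2.57 to 3.98) and 4.86 (4.70 to 5.03), and the membrane regions at 5.18 (4.65 to 5.76) and 6.13 (6.01 to 6.25). The iron and receptor regions were at 4.90 (4.14 to 5.76) and 5.41 (5.25 to 5.58). At E13.5, the sums of factor and globin regions were higher in cluster 11 and those of heme and membrane regions lower. The intervals of the iron and receptor regions overlapped. Single regions weighed on these sums. In cluster 11 at E13.5, the Tal1 region gave 38 fragments, regions near Cbfa2t3 gave 42 and 34, and the Hbb-y window region gave 34. Cluster 11 nuclei were shallow, whereas those of cluster 5 were of all depths. At E13.5 the cluster 5 share in all regions was 7.93% in the lowest range of fragments and 2.85% in the highest. The sums were not repeated without the named regions or at a like depth, so neither a difference nor a likeness is drawn for a list as a whole. At E15.5 each of the 5 lists was lower in cluster 11, with 6.76 against 10.2 for the factor regions and 3.56 (1.95 to 5.98) against 7.07 (5.96 to 8.32) for the globin regions, whose intervals overlapped slightly.

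Single regions differed widely between the erythroid-like clusters. The Tal1 region had 50 fragments in cluster 11 (1, 38 and 11 in stage order), or 81.6 CPM, 2.40 times the level of cluster 5. The Hbb-y window region had 42 (1, 34 and 7), or 68.6 CPM and 3.56 times, whereas the Hbb-y region at chr7:103865001-103866000 had 1 fragment and 0.103 times. The Cbfa2t3 region, near the gene of a corepressor that joins the TAL1 complex, had 40 fragments and 2.81 times the level of cluster 5. By contrast, the Lmo2 region had 0.135 times and that of Ank1 0.269. Regions of the same gene group thus lay on both sides of equality.

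Among regions with at least 40 fragments in cluster 5, 2696 of 5519 had 0 cluster 11 fragments and were thus tied for the lowest level relative to cluster 5. The 5 of these with the most cluster 5 fragments were nearest to Atxn7l1 (26.6 CPM in cluster 5), Odc1 (25.4), Cdyl (25.04), Elmsan1 (24.2) and Cecr2 (23.0). At the depth of cluster 11, 3 fragments would be 4.90 CPM. These 5 were picked for their count of 0, so no lower bound on the difference was drawn. The 5 with the highest were nearest to Dgcr6 (11.9 times cluster 5, with 44 fragments in cluster 11), Tmem125 (10.5, 25 fragments), Dsg1c (9.75, 21), Usp7 (9.68, 40) and Grtp1 (9.03, 52). For Usp7, all 40 fragments came from E13.5.

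To see whether such differences held in another library, regions were grouped by E13.5 alone, a choice made after seeing the data. The 596 regions called high had at least 5 cluster 11 fragments at E13.5 and a level in cluster 11 at or above that of cluster 5, and the 463 called low had at least 5 fragments expected from cluster 5 and at most 1 observed. In E15.5, which set neither group, the ratio of cluster 11 to cluster 5 was 0.808 in the high regions (0.737 to 0.883), 0.0745 in the low regions (0.0578 to 0.0947) and 0.237 over all regions. In the single E12.5 nucleus the ratios were 5.78 and 1.09, against 2.03 over all regions. The high regions were thus above the low ones in both other libraries. Median fragments of cluster 5 were 96.5 and 179, so the groups also differed in level. A gene of the red cell lists was nearest to 64 of the 596 high regions (10.7%) and to 21 of the 463 low ones (4.54%). Over all regions this share was 4.65%, close to that of the low ones. The high and low regions also differed in median distance to a TSS (10.2 and 15.7 kb) and in median fold (7.58 and 17.7). The part of these differences in the shares was not tested. The groups had different needs for depth, and this count was not repeated under a common one.

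Sequence was the remaining feature, read from the 300 bp window with the most cluster 5 insertions in each region. AGATAA, the form GATA1 binds most often, was in 44.7% of the windows, against 16.3% of the windows of open non-members and 19.6% of the central windows of all distal bins. The windows of the first 2 sets were placed on insertions and those of all distal bins were not. In the central 300 bp of the regions AGATAA was in 25.9%, and over whole bins it was in 64.0% of the regions, 38.1% of open non-members and 51.2% of all distal bins, so the difference from all distal bins was smaller where the windows were placed alike. In the windows first used, AGATAA or TGATAA was in 62.1%, against 24.7% and 34.4%. In bins open in mesenchyme-like cluster 1, neuron-like clusters 0 and 6 and muscle-like cluster 10, the AGATAA shares were 14.5%, 17.4% and 9.60%. The composite of CTG and GATA with 9 bases between, which overlaps AGATAA or TGATAA where its GATA is part of one, was in 16.1%, 4.56% and 3.29% in the order first used, and in 2.57%, 3.51% and 3.05% of the other 3 sets. These motifs are letters in a window and not shown to be bound.

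**Figure D5:**
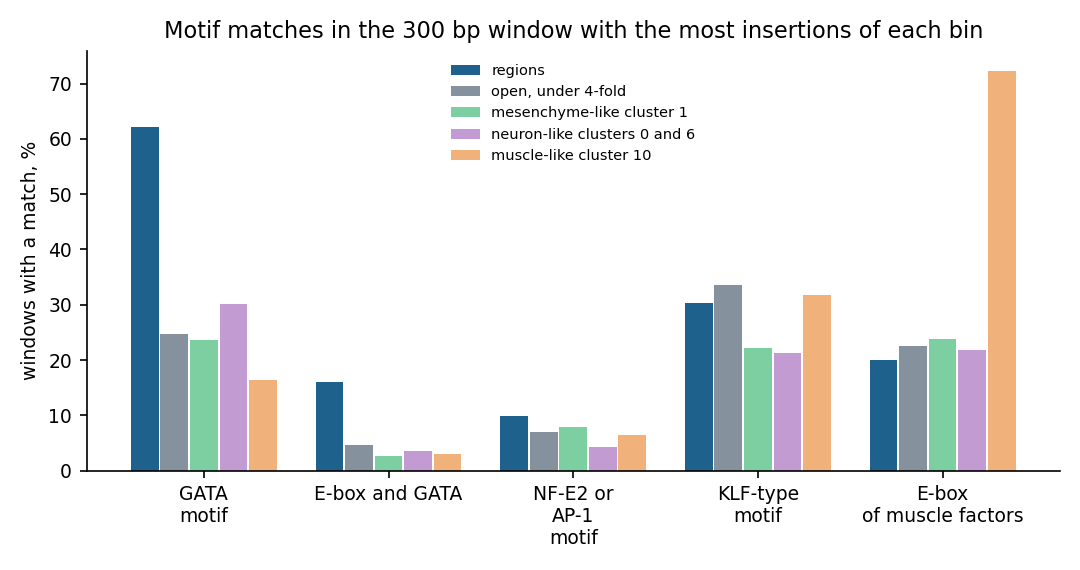
Share of 300 bp windows that hold a motif on either strand (y axis, percent) for the regions, the open non-members (open, under 4-fold) and the bins open in the mesenchyme-like, neuron-like and muscle-like clusters, with a group of bars per motif (x axis). The motifs are AGATAA or TGATAA (the GATA motif), the composite (E-box and GATA in the plot), the NF-E2 or AP-1 motif TGAGTCA, the KLF-type motif CCACCC and the E-box of muscle factors, CAGCTG. The GATA bar of the regions stands at 62.1% and those of the other sets at 16.4 to 30.2%.

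Other motifs did not stand apart in this way. CCACCC, one form of the CACCC sequences that KLF1 binds, was in 30.4% of the windows. This lay between the 33.5% of open non-members and the 15.2% of all distal bins, and CCACCC was in 31.8% of muscle-like bins. Other CACCC sequences were not searched, so nothing is drawn for KLF1 sites at large. The E-box CAGCTG was in 19.99%, and in 72.3% of muscle-like bins. TGAGTCA was in 9.95% of the windows, against 6.95% and 4.69%. The windows differ in base composition, with a mean GC content of 48.3% in the regions, 52.6% in open non-members and 41.5% over all distal bins. The GATA motifs rose with the fold of the region. From the lowest to the highest of 4 equal groups by fold, AGATAA was in 34.6%, 39.1%, 47.1% and 57.9%, and AGATAA or TGATAA in 49.6%, 53.7%, 65.9% and 79.1%, while TGAGTCA went only from 8.99 to 10.6%. These windows were placed on cluster 5 insertions, and touching bins were counted singly. The part of either in the rise was not tested.

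The motif shares of the high and low regions of cluster 11 stood apart. TGAGTCA, as in the Hbb-y window, was in 25.8% of the high regions and 5.40% of the low ones. AGATAA or TGATAA was in 51.5% and 84.4%, and the composite in 15.1% and 30.02%. Since the high and low regions had been chosen with different needs for depth, the comparison was repeated among the 1160 regions where at least 5 cluster 11 fragments were expected from the level of cluster 5. TGAGTCA was in 21.7% of the 189 at or above the level of cluster 5, 11.6% of the 508 between and 5.40% of the 463 with 0 or 1 observed. AGATAA or TGATAA was in 70.9%, 74.8% and 84.4%, and the composite in 27.5%, 29.3% and 30.02%. The order of TGAGTCA held, and the difference in the composite was much smaller than before. The high and low regions also differed in median fold (7.58 and 17.7). The GATA motifs rose with the fold over all regions, and the part of fold in these shares was not tested.

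Around AGATAA within the windows, insertions of cluster 5 over the motif were 0.817 times those of the flanks at 4874 sites in the regions. The ratio was 0.977 in cluster 11 and 0.922 in the pooled clusters at the same sites, and 0.869, 0.850 and 0.951 at 4775 sites in open non-members. Tn5 prefers some sequences over others, and the part of that preference was not tested. Fragments too short to span a nucleosome made up 68.4% of the cluster 5 fragments in the regions and 62.0% of all its autosomal fragments. In cluster 11 the shares were 71.3% and 72.4%, and in the pooled clusters 63.8% and 64.1%.

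Promoters were outside the rule, and the regions could thus be compared with promoters of the nearest genes, from 1000 bp upstream to 100 bp downstream of the TSS. Over 16594 genes that were not the nearest gene of any region, the median fold of cluster 5 over the pooled clusters was 0.995, and 5.56% reached 2. It was 1.22 for the 1374 genes nearest to 1 region (10.99%), 1.39 for the 1187 genes nearest to 2 to 4 (19.4%) and 1.72 for the 488 genes nearest to 5 or more (37.3%). The promoters were measured in the same nuclei and the same clusters that chose the regions, so this is a description of cluster 5. Most genes with many regions had a promoter that was less than 2-fold above the pooled clusters.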

How the data were processed

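Per the labels and the study's methods, nuclei were released from frozen sections of embryos that were littermates of those used for the spatial profiles, stained with 7-AAD, sorted and barcoded with the 10x Genomics droplet chemistry. The authors' deposited fragment files give the position, the barcode and the count of supporting read pairs of each unique fragment. Per the submitters' processing notes they used Cell Ranger ATAC 2.0.0 with mm10, Seurat 4.1.0 and Signac 1.6.0. Cell Ranger ATAC shifts fragment ends to the Tn5 insertion and keeps duplicates once, so neither step was repeated. Cluster numbers came from the deposited cell table of 1879 nuclei (20 of its columns were not used), and the study's methods describe an integration of the nuclei with the spatial profiles without saying whether these numbers come from it. The libraries held 9402554, 87687839 and 53120243 unique fragments in stage order, and the autosomal fragments of cluster 5 numbered 620628, 12817784 and 497044, so the intervals of E12.5 and E15.5 are the widest.

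Fragment midpoints were counted in 1 kb bins and scaled to 1000000 autosomal fragments (CPM). TSSs, genes and exons came from the GENCODE vM21 annotation and sequences from GRCm38.p6, whose coordinates are those of mm10. Distances run from the bin centre to the nearest protein-coding TSS, and a bin was called exonic, intronic or intergenic by the base at its centre. Shares, levels and ratios carry exact 95% intervals (Poisson, and the conditional binomial for ratios) that cover counting error only. With 1 library per stage no test was made, and nuclei were not used as replicates. Doublets were not removed. The scripts were tested on simulated data. Python 3.11.15, numpy 2.4.6, pandas 2.3.3, scipy 1.17.1 and matplotlib 3.10.9 were used.

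The rule, the gene lists and the marker lists were chosen with earlier results of these data known. Named regions were the 10 with the highest fold and the 10 with the most fragments in cluster 5. Of the latter, those near Gtpbp4, Zdhhc19, Gm21060 and Gypc and that of Tmem184a, given for Mafk, are described. Also named were up to 25 for the red cell lists (the region with the most fragments for each gene), and the 5 highest and 5 lowest in cluster 11. A few genes that these rules would name are not reported here. Regions at the limit of the rule and others named for the number of fragments per nucleus were added. Alternatives varied the fold, the minimum of fragments, the distance to a TSS, the added constant, the bins, the scaling, the pool and the nuclei, and left out each library in turn.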

Additional observations from a re-analysis of the deposited data

Results flagged for a closer look

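Fragments outside the clusters compared above also fell in the regions, at shares above that of the pooled clusters of the same library (0.454%, 0.490% and 0.456% in stage order). Barcodes with at least 1000 fragments that the cell table leaves out had 2.89%, 0.650% and 0.545% in the same order, or 0.636% over all libraries. Barcodes with fewer than 1000 fragments had 0.781%, 1.10% and 0.539%, or 0.881% over all. The E12.5 value of the former was close to the 3.20% of cluster 5 in that library.

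Among the clusters of the table that were in neither group, cluster 2 had 0.614% and cluster 4 had 0.712% over all libraries, against 0.473% in the pooled clusters. Cluster 3 was slightly above the pooled clusters, at 0.502%. Of the 490 nuclei of clusters 2, 3 and 4 with at least 1000 fragments, 11 had at least 2% in the regions, and the highest had 5.18%. The source of these fragments was not tested.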

How the results depend on the processing

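No paired analysis was possible because each stage has 1 library, so the stages share a single replicate number. In this paragraph the shares of cluster 5 are in stage order, "ratio" is that of cluster 11 to the pooled clusters, and no cause of a difference between settings was tested. A fold of at least 2 gave 19419 regions, shares of 5.40, 7.35 and 8.83%, a ratio of 2.97, 18.6% of regions 4-fold up in cluster 11, 32.2% with AGATAA and 59.6% in introns. A fold of at least 8 gave 3084 regions, 1.74, 2.73 and 3.92%, a ratio of 7.75, 40.05%, 55.1% and 56.4%. A minimum of 10 fragments gave 3.35, 4.83 and 6.37%, a ratio of 4.85, 26.1%, 41.7% and 57.0%, and one of 40 gave 5519 regions, 2.71, 4.04 and 5.54%, a ratio of 5.62, 33.5% and 48.3% with AGATAA. With 1 CPM added, 2701 regions remained, with 1.82, 2.84 and 4.09%, a ratio of 7.42, 43.2% up in cluster 11, 54.8% with AGATAA and 5.18% nearest to a listed gene. Bins more than 1 kb from a TSS gave 3.64, 5.29 and 7.07%, a ratio of 5.15 and 59.3% in introns, bins more than 5 kb away gave 2.26, 3.32 and 4.405%, a ratio of 4.62 and 26.3% up in cluster 11, and TSSs of protein-coding genes alone gave 3.53, 5.14 and 6.89% and a ratio of 5.09. Counting both fragment ends gave 3.33, 4.82 and 6.36%, a ratio of 4.85, 26.2%, 42.0% and 57.1%, and scaling to distal fragments gave 3.45, 4.999 and 6.56%, a ratio of 4.64, 26.6% and 42.7%. Equal weights gave 3.12, 4.57 and 6.09%, a pool without cluster 8 gave 3.35, 4.86 and 6.42% and a ratio of 5.17, and nuclei in place of fragments gave 2.91, 4.28 and 5.78%, a ratio of 5.29 and 29.9% up in cluster 11. Shifted bins moved E13.5 to 4.68%, clusters 2, 3 and 4 in the pool moved it to 4.65%, and 1 barcode per linked group moved E12.5 to 3.25%. AGATAA was in 64.0% of whole bins and 25.9% of their central 300 bp. The ratio was 3.24 in E15.5 alone. Nuclei of the lowest range of fragments, an alternative chosen after seeing the data, gave 8.20, 7.93 and 8.28%.

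Leaving out each library in turn gave 379 to 8550 regions, shares of cluster 5 of 0.604 to 3.20%, 0.761 to 4.69% and 1.31 to 6.25%, a ratio of 4.82 to 9.54, 27.8 to 45.1% up in cluster 11, 44.1 to 62.0% with AGATAA, 54.9 to 58.8% in introns and 4.58 to 6.60% nearest to a listed gene. The extremes without E13.5 rest on 379 regions, of which 373 were among the 8503. In all 20 alternatives other than the one with the lowest range of fragments, E15.5 kept the highest share of cluster 5 and E12.5 the lowest. Among the nuclei of the lowest range the stages did not keep that order, and in the second range, with 2.65, 7.09 and 9.12%, they did. The 10 nuclei of cluster 5 at E12.5 and at E15.5, and the 1 nucleus of cluster 11 at E12.5, limit what can be said of stages.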
